A study of Mus musculus with 38 samples.

Results

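The genes described here encode the enzymes that write, copy and remove DNA methylation: the methyltransferases Dnmt1, Dnmt3a and Dnmt3b, the copying cofactor Uhrf1, and the oxidising enzymes Tet1, Tet2 and Tet3. They were followed by every probe set whose annotation names exactly 1 of these 7 symbols, which gave 19 of the 45101 probe sets on the array (34945 carry exactly 1 symbol, of 18193 genes). Dnmt3a had 5 of them, Tet1 had 4, Dnmt1 had 3, Uhrf1, Dnmt3b and Tet2 had 2 each and Tet3 had 1. An Affymetrix array read the RNA of unsorted bone marrow, 1 array for each of 38 C57BL/6 mice, male or female, with ages not given in the sources used here. In 34 mice leukaemia had been started by infecting c-kit+ marrow progenitors with a retrovirus carrying an MLL fusion oncogene and transplanting them into lethally irradiated syngeneic animals: MLL-AF1p (9 mice), MLL-AF10 (8), MLL-GAS7 (5), MLL-AF9 (5) or MLL-ENL (7). In these fusions the front part of the histone methyltransferase MLL is joined to a partner protein, and the leukaemic marrow was taken at euthanasia. The 4 controls were marrows of wild type C57BL/6 mice, which the labels do not describe as irradiated or transplanted. The marrow was not sorted, so each value mixes leukaemic cells with whatever normal cells the mouse still had, and nothing in the labels says whether mice of a cohort shared donor cells.

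DNA methylation sits on the cytosine of CG pairs. Dnmt1 restores it after replication, on the new strand, where Uhrf1 recognises half-methylated CG pairs and brings Dnmt1 to them. Dnmt3a and Dnmt3b place methyl groups on unmethylated DNA, and the Tet enzymes oxidise the methyl group, which opens the way to its loss. In blood formation Dnmt3a and Tet2 are known as regulators of stem cell self-renewal, and both genes are often mutated in human myeloid disease.

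Tet2 was the member with the clearest difference between leukaemic and normal marrow: both of its probe sets were higher in leukaemia, and both passed the test in all 5 cohorts. Dnmt3a differed between the cohorts, being lower in MLL-AF1p than in the other 4 on 3 of its 5 probe sets. The leading probe sets of Dnmt1 and Uhrf1 varied together from mouse to mouse, and neither passed the test against normal marrow. A probe set was called at an adjusted p under 0.05 in limma over the 29004 probe sets tested, and a gene's leading probe set is the tested one with the highest mean. Of the 18 member probe sets tested (1 of Tet1 was too dim), 5 were called in leukaemia against normal, 4 higher and 1 lower, where 36.9% of all probe sets tested were called (24.9% higher and 12.1% lower). Of the 4 higher, Dnmt3a 1423064_at was bright enough to be tested only in the leukaemias. By leading probe set 1 of 7 genes was called, where 40.8% of 13333 genes were called (28.3% higher and 12.5% lower). So large a share of the array differed from normal marrow that a call in this comparison is not unusual. The differences of all tested probe sets had a median of 0.14 (log2) in leukaemia against normal.

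By cohort, 7 of the 18 member probe sets were called against normal in MLL-AF10, 6 in MLL-AF1p, 4 in MLL-AF9, 4 in MLL-ENL and 3 in MLL-GAS7, where 32.7%, 31.9%, 27.7%, 35.4% and 22.6% of all probe sets were called. By leading probe set these counts were 2, 1, 2, 1 and 1 of 7 genes, where 35.4%, 35.3%, 31.9%, 40.1% and 25.6% of genes were called. Among the probe sets counted, Dnmt3a 1423064_at (called in all cohorts but MLL-AF1p) and Tet3 1439324_at (called in MLL-AF10) were bright enough to be tested only in the leukaemias. Tet3 is also in the leading count of MLL-AF10. Each cohort was also set against the mean of the other 4. MLL-AF1p then had 3 member probe sets called, all lower and all of Dnmt3a, where 1.26% of probe sets were called (0.865% lower). MLL-GAS7 had 1, of Tet1 and higher, where 3.45% were called (0.921% higher). That probe set would have been too dim to test without the MLL-GAS7 mice. In MLL-AF10, MLL-AF9 and MLL-ENL limma called 0, where 0.445%, 0.355% and 3.83% of probe sets were called, and 4, 2 and 2 of the 18 member probe sets had an unadjusted p under 0.05. By leading probe set Dnmt3a in MLL-AF1p was called, where 1.72% of genes were, and 0 of 7 in MLL-GAS7 (4.10% of genes called, 3 members at an unadjusted p under 0.05), MLL-AF10 (0.323%, 2), MLL-AF9 (0.368%, 1) and MLL-ENL (4.24%, 2).

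**Figure D1:**
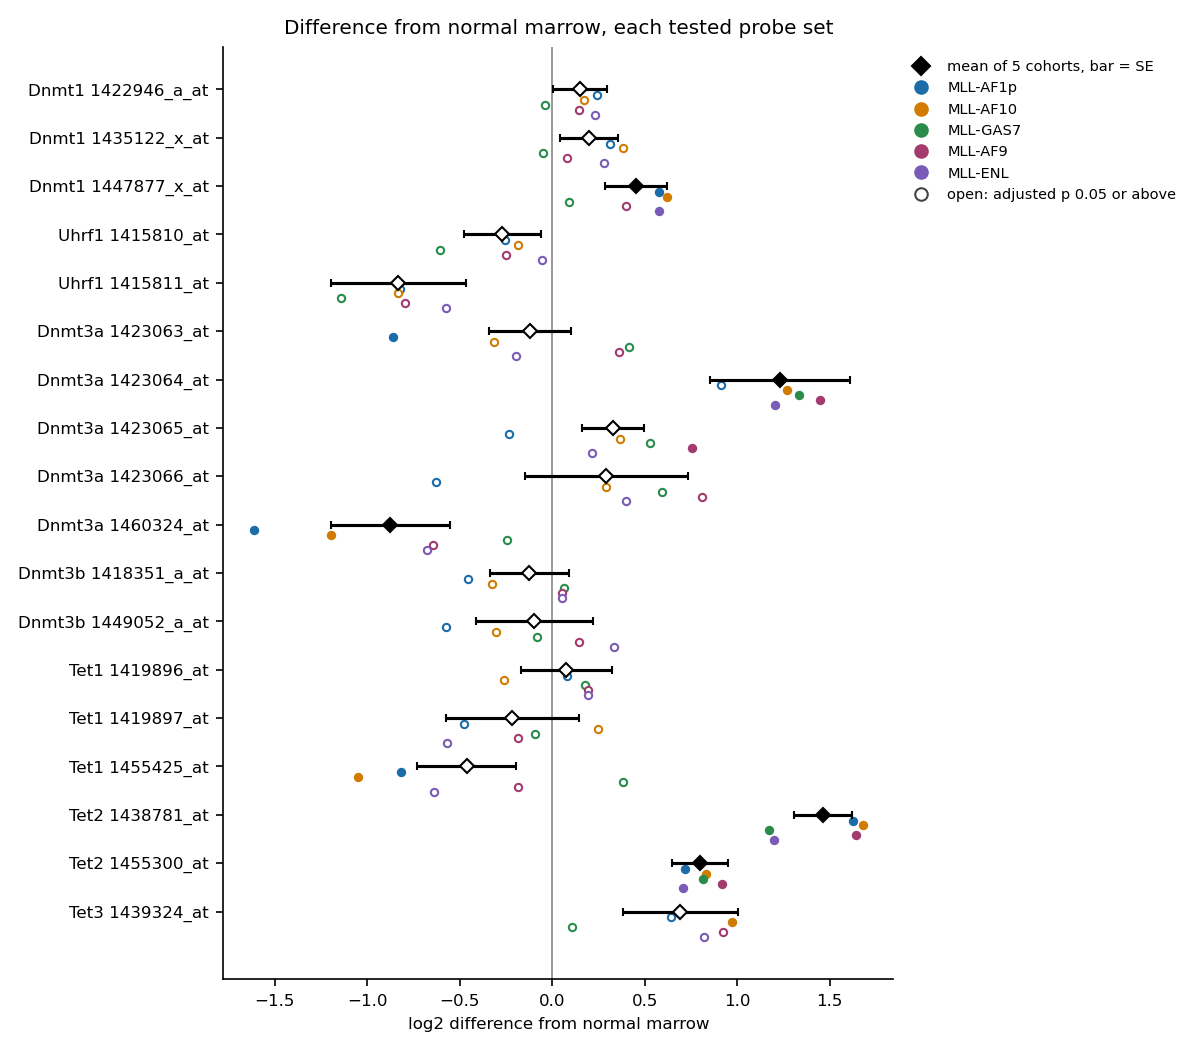
Log2 difference from normal marrow (x axis) for each of the 18 tested probe sets (rows); diamonds are the mean of the 5 cohorts with its standard error, circles the single cohorts, and filled symbols an adjusted p under 0.05. Both Tet2 probe sets lie to the right with every symbol filled, and 2 Dnmt3a probe sets, 1423064_at and 1460324_at, lie on opposite sides of 0.

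The marrows differed widely in cell content. In leukaemia against normal 11 of 12 erythroid markers, 11 of 11 B cell markers, 9 of 9 T and NK cell markers, 5 of 6 megakaryocyte markers, 6 of 10 late neutrophil markers and 3 of 6 stroma markers were lower, and 8 of 8 monocyte and 4 of 6 promyelocyte markers were higher. The shares of all genes called were 12.5% lower and 28.3% higher. The summed intensity of the erythroid markers was 120532 to 168802 in the normal marrows and 2634.3 to 5227.9 in the leukaemias. For B cell markers it was 14447.1 to 31047.6 and 1598.8 to 7369.4, for T and NK cell markers 5148.5 to 6853.4 and 868.8 to 5336.1, and for megakaryocyte markers 20793.5 to 31835.1 and 921.2 to 2353. The monocyte sum was 20616.6 to 33159.6 in normal marrow and 36534.1 to 129330 in leukaemia, the promyelocyte sum 54282.8 to 120038 and 60896.7 to 191556, and the late neutrophil sum 252700 to 412109 and 39832.3 to 548473. Stroma markers summed to 5421.6 to 8583.1 in normal marrow and to 855.3 to 6231.5 in leukaemia. No intensity on any array was 0. In bulk RNA, fewer cells of a type and less RNA per cell cannot be told apart, and the part of these cell types in the member differences was not tested. The arrays also fall into 2 sets that the labels do not name, told apart by 8 probe sets of other genes: set 1 holds 16 leukaemias from all 5 cohorts, and set 2 holds 18 leukaemias and the 4 normal marrows. The placing of normal mouse 2 in set 2 is uncertain, since only 50% of the 8 probe sets put it there.

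Dnmt1, the maintenance methyltransferase, was not called against normal in any cohort on its leading probe set, with differences from -0.04 ± 0.19 in MLL-GAS7 to 0.24 ± 0.17 in MLL-AF1p. On that probe set, 1422946_a_at, the normal marrows read 12.37, 12.42, 12.62 and 12.65 on the log2(intensity + 46.1) scale, which is used for all levels that follow. The 9 MLL-AF1p mice ran from 12.41 over a median of 12.80 to 13.12, the 8 MLL-AF10 mice from 12.23 over 12.70 to 13.04, and the 7 MLL-ENL mice from 12.39 over 12.88 to 12.98. All 3 ranges covered most of the normal range. The MLL-GAS7 mice read 11.94, 12.52, 12.54, 12.60 and 12.79, and the MLL-AF9 mice 12.22, 12.66, 12.71, 12.74 and 12.96. The group means followed the order MLL-AF1p, MLL-ENL, MLL-AF10, MLL-AF9, normal, MLL-GAS7, and no step between neighbours exceeded the larger SD of the pair. The leukaemia mean was higher by 0.15 ± 0.15 (SE, adjusted p = 0.455 by limma), or 1.11-fold, about the median shift of all probe sets. The probe set 1435122_x_at gave 0.20 ± 0.16 (adjusted p = 0.337 by limma). The remaining probe set, 1447877_x_at, was called higher, by 0.45 ± 0.17 or 1.37-fold (adjusted p = 0.0291), with 27 of 34 leukaemias above all normal marrows. That call was lost without normal mouse 3 (adjusted p = 0.169) or normal mouse 4 (0.102), and within array set 2, where the difference was 0.31 (adjusted p = 0.115). It was also lost on unshifted intensities (0.32), after quantile normalization (0.31), with a term for array set (0.33) and once 5 arrays whose hybridisation controls were brightest had been left out (0.38), with adjusted p from 0.0936 to 0.125. By cohort it was called in MLL-AF10 (0.62), MLL-AF1p (0.58) and MLL-ENL (0.58), and each of these calls was lost without normal mouse 3 (adjusted p from 0.0648 to 0.0958). The _x_at suffix marks probes that may also match other transcripts, so these readings of Dnmt1 are less certain.

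Uhrf1, the reader of half-methylated DNA, had a leading probe set (1415810_at) at 11.78, 12.11, 12.11 and 12.12 in the normal marrows. The MLL-AF1p mice ran from 11.27 over a median of 11.87 to 12.26, the MLL-AF10 mice from 11.34 over 11.82 to 12.68, and the MLL-ENL mice from 11.62 over 12.07 to 12.33. Individual values were 10.81, 11.22, 11.30, 11.56 and 12.21 in MLL-GAS7 and 10.80, 11.76, 12.01, 12.11 and 12.22 in MLL-AF9. Most leukaemias lay low in the normal range or under it: 16 of 34 were below every normal marrow and 7 above. The mean difference was -0.27 ± 0.21 (adjusted p = 0.333 by limma), and normal, MLL-ENL, MLL-AF10, MLL-AF9, MLL-AF1p and MLL-GAS7 followed in falling order of means, again with no step above the larger SD. With quantile normalization the leading probe set was called lower, by 0.48 (value -0.48, adjusted p = 0.0331). Among the cohorts the difference from normal was largest in MLL-GAS7, at -0.61 ± 0.26 (adjusted p = 0.0964 by limma). That cohort was called on unshifted intensities (-0.67, adjusted p = 0.0267), after quantile normalization (-0.72, with 0.0152) and without the mouse MLL-GAS7_406 (-0.81, with 0.0259). The second probe set, 1415811_at, was at 10.65, 10.86, 11.001 and 11.29 in normal marrow. It lay below all of these in 24 of 34 leukaemias, whose median was 10.16, with a difference of -0.83 ± 0.36 (adjusted p = 0.0699). It was called on unshifted intensities (-0.96, adjusted p = 0.0262), after quantile normalization (-1.01, with 0.0206) and with the median as pseudocount (-0.80, with 0.0398). When the model held a term for array set the difference was -0.31 (adjusted p = 0.363), and within set 2 it was -0.35 (adjusted p = 0.214). In MLL-GAS7 this probe set was at -1.14 ± 0.46 (adjusted p = 0.0703 by limma) and was called on unshifted intensities, after quantile normalization and with the median as pseudocount (from -1.28 to -1.05, adjusted p from 0.0275 to 0.0475) and without the mouse MLL-GAS7_405 (adjusted p = 0.0485).

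Within groups, the leading probe sets of Dnmt1 and Uhrf1 rose and fell together over the mice. After each mouse was set against the mean of its group, their leading probe sets had a Pearson r of 0.85 over the 38 arrays (adjusted p = 9.33e-05, from the smallest p that 100000 permutations can give) and a Spearman rho of 0.82 (adjusted p = 9.33e-05). Without the 2 arrays farthest from the Dnmt1 median r was 0.83, and it was 0.95 in the 16 arrays of set 1 and 0.84 in the 22 of set 2. The other pairs of their probe sets were less close. With Uhrf1 1415810_at r was 0.68 for both Dnmt1 1435122_x_at and 1447877_x_at. With Uhrf1 1415811_at it was 0.77, 0.16 and -0.07 for Dnmt1 1422946_a_at, 1435122_x_at and 1447877_x_at. The 2 Uhrf1 probe sets had an r of 0.55 with each other. Both leading probe sets also followed the mean of 20 S phase genes, which encode the replication machinery and the enzymes of nucleotide supply. For Dnmt1 r was 0.86 and rho 0.87, and for Uhrf1 0.94 and 0.91 (each adjusted p = 9.33e-05), with r of 0.84 and 0.92 after the 2 farthest arrays were left out. The relation held in both array sets, at 0.95 and 0.92 for Dnmt1 and 0.98 and 0.92 for Uhrf1. These 3 relations of leading probe sets are among 28 tested, and none of the other 25 passed by Pearson's r. By rho Dnmt3b passed with Dnmt1 (0.45, adjusted p = 0.0464) and with the S phase mean (0.44, adjusted p = 0.0464), and Tet3 with Uhrf1 (0.48, adjusted p = 0.0368), by a permutation test. For those 3 pairs the adjusted p of r was 0.0745, 0.0745 and 0.0767. In set 1 and set 2, r was 0.46 and 0.37 for Dnmt3b with Dnmt1 and 0.53 and 0.46 for Dnmt3b with the S phase mean, whereas Tet3 with Uhrf1 had 0.68 in set 1 and 0.14 in set 2.

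**Figure D2:**
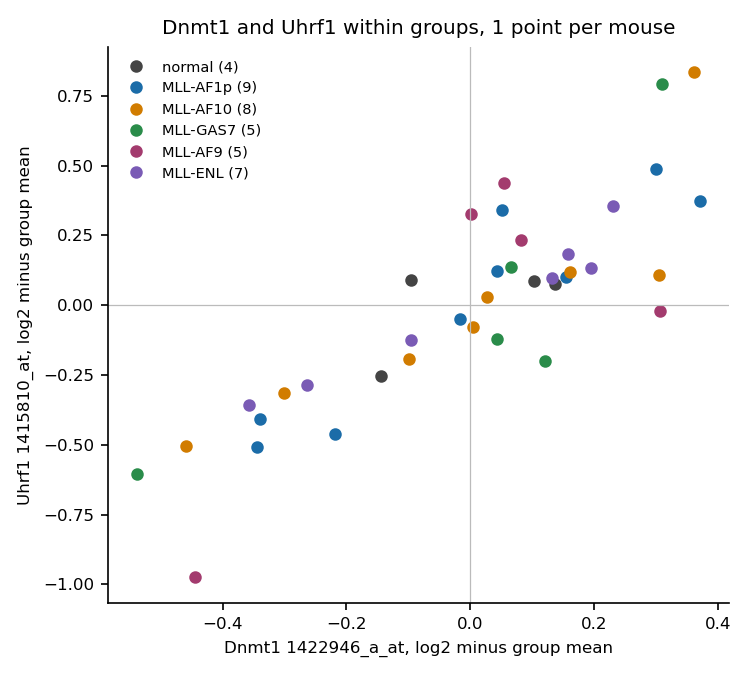
Uhrf1 (y axis) against Dnmt1 (x axis), each by its leading probe set, as the log2 level of a mouse minus the mean of its group, 1 point per mouse, coloured by group. The points run from the lower left to the upper right in a single band (r 0.85, n = 38).

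The starts of these 2 genes are shown because their leading probe sets moved together over the mice. E2F proteins switch on genes for S phase and bind short words, of which TTTCCCGC, TTTCGCGC, TTTGCCGC and TTTGGCGC were searched on both strands in the 250 bases before each start listed by RefSeq (GRCm38.p6). At least 1 of the 4 words stood in 1.86% of the 32807 windows of this length. Among the 12 windows of the member genes 2 held one, start 3 of those listed for Dnmt1 and start 2 for Uhrf1, and in both it was the same word, read on opposite strands. Each is printed 5′ to 3′ along the gene's strand with the word in capitals, from chr9:20952824-20952853 (minus strand) and chr17:56304117-56304146 (plus strand).

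Dnmt1: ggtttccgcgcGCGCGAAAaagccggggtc

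Uhrf1: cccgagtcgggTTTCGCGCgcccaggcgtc

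The word lies 219 to 212 bases before that Dnmt1 start and 185 to 178 bases before that Uhrf1 start. A match of letters is a description of the window and not evidence of binding, and a window without the words says nothing about E2F there. Of the other motifs counted, none of whose matches overlaps these words, the box CCAAT stood in 33.8% of all windows, 3 times in this Dnmt1 window and 2 times in this Uhrf1 window. GGGCGG stood in 32.7% of all windows, 2 times in the Dnmt1 window and 3 times in the Uhrf1 window.

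Dnmt3a, a de novo methyltransferase, was the member with the most probe sets called between cohorts. On the leading probe set, 1423065_at, the normal marrows read 8.43, 8.45, 8.62 and 8.88. The 9 MLL-AF1p mice ran from 7.90 over a median of 8.36 to 8.78, with 6 of them below every normal marrow. The 5 MLL-GAS7 mice read 8.99, 9.05, 9.11, 9.12 and 9.35, and the MLL-AF9 mice 8.84, 9.27, 9.42, 9.46 and 9.76. All 5 MLL-GAS7 mice and 4 of 5 MLL-AF9 mice were therefore above the normal range, and no MLL-AF1p mouse reached the lowest of either group. The MLL-AF10 mice ran from 8.23 over 8.95 to 9.51 and the MLL-ENL mice from 8.18 over 8.86 to 9.36, so both overlapped every other group. The order of means was MLL-AF9, MLL-GAS7, MLL-AF10, MLL-ENL, normal, MLL-AF1p, in which no neighbours were apart by more than the larger SD.

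The 5 cohorts differed on this probe set by a moderated F test (adjusted p = 0.00171, largest gap between cohort means 0.99). Within either array set that call was lost, with a gap of 0.94 in set 2 (adjusted p = 0.0779) and 0.92 in set 1 (adjusted p = 0.316). That test called 4 of the 18 member probe sets, where it called 6.28% of all, and 1 of 7 leading ones, where it called 6.96% of genes. MLL-AF1p was lower than the mean of the other 4 cohorts by 0.70 (value -0.70 ± 0.12, 1.62-fold, adjusted p = 0.00131 by limma). In MLL-AF9 the level was above normal by 0.76 ± 0.21, or 1.69-fold (adjusted p = 0.00617), though not within array set 2 (0.53, adjusted p = 0.174). Against normal marrow the mean of all cohorts was not called (0.33 ± 0.17, adjusted p = 0.125 by limma), with cohort means on both sides of the normal mean. MLL-AF1p itself was not called against normal on this probe set (-0.23 ± 0.19, adjusted p = 0.377).

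The other 4 Dnmt3a probe sets gave differing readings. The probe set 1423063_at was at 8.77, 8.80, 9.20 and 9.32 in normal marrow, and all 9 MLL-AF1p mice were below that, from 7.35 over a median of 8.24 to 8.51. In MLL-GAS7 the mice read 8.74, 9.20, 9.55, 9.60 and 10.08, and the MLL-AF9 mice 9.02, 9.30, 9.43, 9.50 and 9.67. MLL-AF10 ran from 8.25 over 8.59 to 9.76 and MLL-ENL from 7.79 over 8.84 to 9.35. In order of means, the steps from MLL-AF9 down to normal marrow and from MLL-AF10 (mean 8.70) down to MLL-AF1p (mean 8.16) exceeded the larger SD of the pair, and no other step did. MLL-AF1p was lower than the other cohorts by 0.93 (value -0.93 ± 0.16, 1.90-fold, adjusted p = 0.00131 by limma) and lower than normal (-0.86 ± 0.25, adjusted p = 0.00744).

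On 1460324_at, too, MLL-AF1p was the lowest cohort. The normal marrows read 8.40, 8.56, 8.67 and 9.07, and 28 of 34 leukaemias lay below all of them. MLL-AF1p ran from 5.86 over a median of 7.34 to 7.60, MLL-AF10 from 5.95 over 7.54 to 8.67, and MLL-ENL from 7.12 over 8.03 to 8.74. The MLL-GAS7 mice read 7.51, 7.71, 8.96, 8.98 and 9.01, and the MLL-AF9 mice 7.44, 7.81, 8.25, 8.27 and 8.40. This probe set was dim in MLL-AF1p: 0 of 9 mice were above their array's median, where 17 of 34 leukaemias and all 4 normal marrows were. All 9 MLL-AF1p mice were under the normal range, whereas 3 of 5 MLL-GAS7 mice were inside it. The difference from the other cohorts was -0.92 ± 0.24 (adjusted p = 0.0369 by limma) and that from normal -1.61 ± 0.36 (3.06-fold, adjusted p = 0.000665). MLL-AF10 was also lower than normal here, by 1.20 (value -1.20 ± 0.37, adjusted p = 0.0116), though not within array set 2 (-0.90, adjusted p = 0.0582). Over all cohorts the difference from normal was -0.88 ± 0.32 (adjusted p = 0.0302), and it was no longer called when the model held a term for array set (-0.70, adjusted p = 0.0916), with a pseudocount of 1 (-1.10, adjusted p = 0.0706), within array set 2 (-0.71, adjusted p = 0.0674), or without normal mouse 1, 2 or 4 (adjusted p from 0.0594 to 0.122). The call of MLL-AF1p against the other cohorts was lost when any 1 of 11 leukaemias was left out (adjusted p from 0.0508 to 0.106), and within either array set, at -1.0004 in set 2 (adjusted p = 0.149) and -0.83 in set 1 (adjusted p = 0.737). It was also lost with a pseudocount of 1 (-1.28, adjusted p = 0.0670) or no filter on dim probe sets (adjusted p = 0.0548). The F test among cohorts called this probe set (adjusted p = 0.0341), a call lost without any 1 of 6 leukaemias (adjusted p from 0.0516 to 0.0697) and within either array set (adjusted p = 0.200 and 0.438).

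The probe set 1423064_at moved the other way against normal. It read 5.98, 6.15, 6.85 and 7.56 in the normal marrows, none of which was above its array's median. As 22 of 34 leukaemias were above theirs, it passed the filter on dim probe sets through the leukaemias alone, the group then called higher. In the leukaemias it ran from 6.17 over a median of 7.92 to 8.95, with 23 of 34 above every normal marrow. The difference was 1.23 ± 0.38, or 2.35-fold (adjusted p = 0.00966 by limma), called in 4 cohorts and not in MLL-AF1p (0.91 ± 0.43, adjusted p = 0.105). Without normal mouse 3 the adjusted p was 0.0580 and without normal mouse 4 it was 0.0743, and without either of them the calls of all 4 cohorts were lost too. The MLL-AF9 call was also lost within array set 2 (1.43, adjusted p = 0.0661), and the MLL-ENL call on unshifted intensities (0.9999, adjusted p = 0.0752). On each array, 1423064_at minus 1460324_at was -2.69 to -1.01 in the normal marrows and -1.31 to 2.88 in the leukaemias, of which 29 of 34 lay above all 4 normal values. This pair was picked as the Dnmt3a probe sets with the highest and lowest difference from normal. The separation therefore follows from the choice and is no further evidence. The remaining probe set, 1423066_at, was not called against normal (0.29 ± 0.44, adjusted p = 0.648). It was lowest in MLL-AF1p, at -1.15 against the other cohorts with an adjusted p of 0.0674, so it was not called in the main fit. It was called there on unshifted intensities (-1.14, adjusted p = 0.0390), with the median as pseudocount (-0.87, with 0.0428) and after quantile normalization (-1.15, with 0.0494). Leaving out the 5 arrays with the brightest hybridisation controls (-1.22, with 0.0381) or any 1 of 3 leukaemias (adjusted p from 0.0202 to 0.0447) gave a call too. Within groups the 5 probe sets were correlated unequally over the 38 arrays: 1423063_at had an r of 0.63 with both 1423065_at and 1460324_at, whereas 1423064_at had 0.05 with 1423065_at and 0.09 with 1460324_at.

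**Figure D3:**
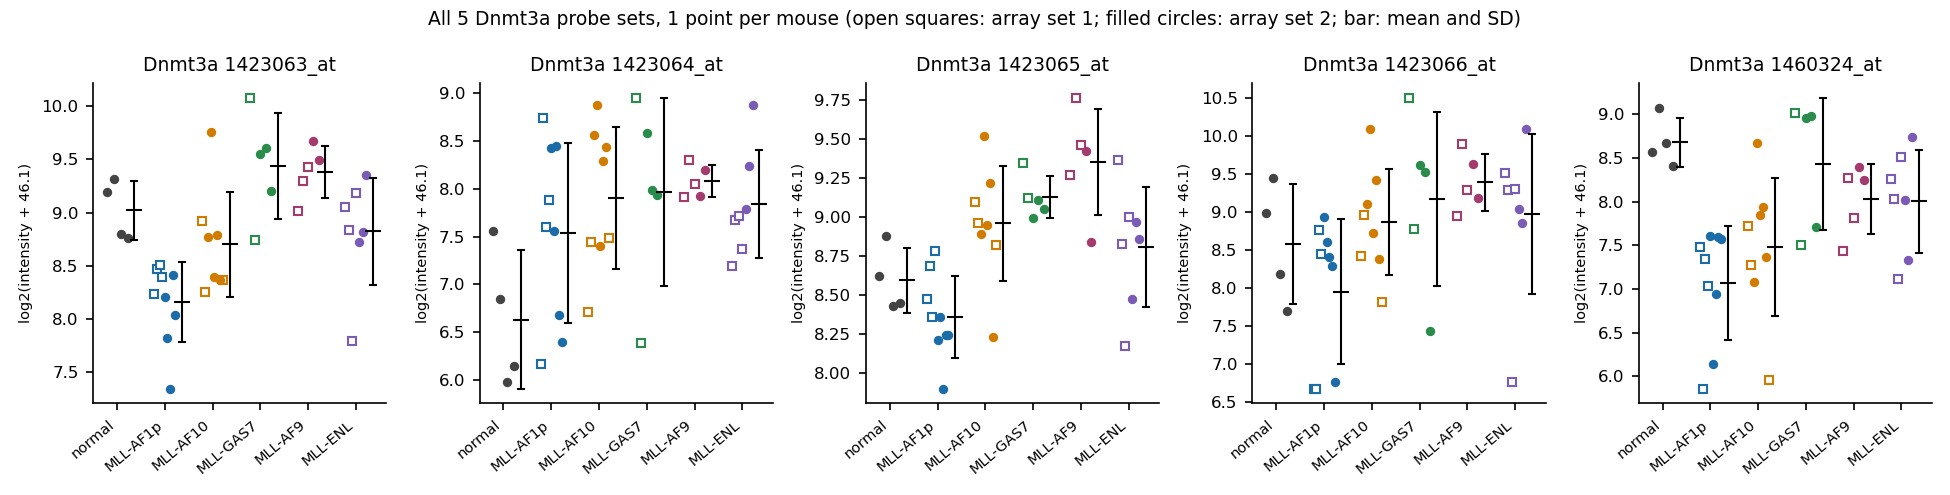
The 5 Dnmt3a probe sets, with log2(intensity + 46.1) on the y axis, groups on the x axis and 1 point per mouse; open squares are array set 1, filled circles array set 2, and bars the group mean and SD. MLL-AF1p is the lowest cohort on every probe set, and the normal marrows are the lowest group on 1423064_at and the highest on 1460324_at.

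The lower Dnmt3a reading in MLL-AF1p was present in both array sets. On 1423065_at it was -0.78 in set 2 (adjusted p = 0.0341) and -0.56 in set 1 (adjusted p = 0.582), and on 1423063_at -1.24 (adjusted p = 0.00892) and -0.57 (adjusted p = 0.744). Set 1 holds 4 MLL-AF1p mice among its 16, and in it 8 probe sets of the whole array were called in that comparison. Cell type markers were read beside the lower Dnmt3a reading. Against the other cohorts the median difference in MLL-AF1p was 0.68 (log2) for late neutrophil markers, 0.34 for promyelocyte markers and -0.22 for B cell markers, where that of all 13333 genes was -0.02. In MLL-AF1p none of the erythroid, T and NK cell, promyelocyte, monocyte or stroma markers was called. It had 1 of 10 late neutrophil and 1 of 6 megakaryocyte markers called higher and 1 of 11 B cell markers called lower, where 1.72% of all genes were called. Their summed intensities in MLL-AF1p were 57925.2 to 548473 for late neutrophil (39832.3 to 410306 in the other 4 cohorts), 105416 to 176758 for promyelocyte, 1125.1 to 2076.9 for megakaryocyte and 1598.8 to 2248.4 for B cell markers, and their part in the Dnmt3a result was not tested.

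Dnmt3b, the other de novo enzyme, was not called against normal marrow on either probe set, at -0.10 ± 0.32 (adjusted p = 0.845 by limma) on 1449052_a_at and -0.12 ± 0.21 (adjusted p = 0.693) on 1418351_a_at. The second was called in MLL-AF1p on unshifted intensities (-0.57, adjusted p = 0.0370). On the first, the normal marrows read 8.11, 8.46, 8.56 and 8.64. MLL-AF1p ran from 7.28 over a median of 7.73 to 8.39, MLL-AF10 from 6.42 over 8.16 to 9.40, and MLL-ENL from 8.28 over 8.64 to 9.39. None of the 9 MLL-AF1p mice exceeded the normal median, while 6 of 7 MLL-ENL mice did. The 5 MLL-GAS7 mice read 6.53, 8.60, 8.69, 8.97 and 9.03, and the MLL-AF9 mice 8.04, 8.50, 8.67, 8.70 and 9.03. The means fell in the order MLL-ENL, MLL-AF9, normal, MLL-GAS7, MLL-AF10, MLL-AF1p, and the F test among cohorts did not call it (adjusted p = 0.200).

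Tet2, which oxidises methylated cytosine and is the Tet enzyme best known in blood formation, was higher in every leukaemia than in any normal marrow on its leading probe set. On it, 1438781_at, the normal marrows read 9.31, 9.32, 9.54 and 9.56. The MLL-AF1p mice ran from 10.53 over a median of 11.08 to 11.52, the MLL-AF10 mice from 10.81 over 11.07 to 11.62, and the MLL-ENL mice from 10.27 over 10.66 to 11.005. In MLL-GAS7 the mice read 10.19, 10.41, 10.45, 10.76 and 11.22, and the MLL-AF9 mice 10.77, 10.90, 10.94, 11.30 and 11.47. The leukaemias and the normal marrows were thus separated by a gap, and 34 of 34 leukaemias lay above it. The mean difference was 1.46 ± 0.16, or 2.76-fold (adjusted p = 1.63e-09 by limma).

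By cohort the rise on this probe set was 1.68 ± 0.18 in MLL-AF10, 1.64 ± 0.20 in MLL-AF9, 1.63 ± 0.18 in MLL-AF1p, 1.20 ± 0.19 in MLL-ENL and 1.17 ± 0.20 in MLL-GAS7. The adjusted p by limma was between 2.57e-09 (MLL-AF10) and 2.63e-05 (MLL-GAS7). These 5 comparisons share their 4 normal marrows. The order of means was MLL-AF10, MLL-AF9, MLL-AF1p, MLL-ENL, MLL-GAS7, normal. The step from MLL-AF1p to MLL-ENL and that from MLL-GAS7 to normal exceeded the larger SD of the pair, and no other did. The F test among cohorts gave an adjusted p of 0.0535, and from 0.0363 to 0.0440 with the median as pseudocount, array weights, a variance trend or 1 probe set per gene, so the difference between the cohorts lies at the threshold.

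The second Tet2 probe set, 1455300_at, read 9.04, 9.17, 9.44 and 9.72 in normal marrow. In MLL-AF1p it ran from 9.46 over a median of 10.22 to 10.39, in MLL-AF10 from 9.78 over 10.23 to 10.41, and in MLL-ENL from 9.67 over 10.14 to 10.35. The MLL-GAS7 mice read 9.79, 9.998, 10.07, 10.32 and 10.61, and the MLL-AF9 mice 9.97, 10.19, 10.35, 10.38 and 10.41. All but 3 leukaemias, 31 of 34, lay above every normal marrow. The difference was 0.80 ± 0.15, or 1.74-fold (adjusted p = 6.27e-05 by limma), from 0.71 ± 0.18 in MLL-ENL to 0.92 ± 0.19 in MLL-AF9. The 2 probe sets therefore agreed in direction and differed in size, and within groups their r was 0.35 over the 38 arrays. Both calls stood in array set 2 alone, with 1.499 (adjusted p = 7.72e-07) and 0.83 (adjusted p = 0.000169).

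Tet1 was read by 4 probe sets. The leading one, 1419896_at, read 7.49, 7.60, 7.70 and 7.88 in the normal marrows, of which 2 were above their array's median, as were 23 of 34 leukaemias. On 1455425_at 5 of 34 leukaemias were above it and on 1419897_at 3 of 34. Leukaemias ran on the leading probe set from 5.99 over a median of 7.81 to 8.58, and the difference was 0.08 ± 0.24 (adjusted p = 0.840 by limma). The probe set 1455425_at differed between cohorts (F test adjusted p = 0.00730, largest gap 1.43), a call lost within set 2 (1.44, adjusted p = 0.105) and within set 1 (1.43, adjusted p = 0.376). The 5 MLL-GAS7 mice read 7.17, 7.55, 7.93, 8.09 and 8.39, against 6.84, 7.03, 7.05, 7.09 and 8.28 in MLL-AF9. MLL-AF1p ran from 5.73 over a median of 6.65 to 7.77, MLL-AF10 from 5.80 over 6.55 to 7.31, and MLL-ENL from 6.39 over 6.78 to 7.39. The normal marrows, at 7.06, 7.23, 7.65 and 7.83, overlapped MLL-GAS7, and 7 of 8 MLL-AF10 mice and 8 of 9 MLL-AF1p mice lay below them.

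MLL-GAS7 was higher than the other cohorts on this Tet1 probe set by 1.06 ± 0.25, or 2.08-fold (adjusted p = 0.0100 by limma). The value was 1.05 in array set 2 (adjusted p = 0.143) and 0.999 in set 1 (adjusted p = 0.276), and the call was lost without the mouse MLL-GAS7_408 (adjusted p = 0.0604). The filter on dim probe sets asks for at least 4 arrays above their median. On this probe set these were 3 in MLL-GAS7 and 1 each in MLL-AF9, MLL-AF1p and normal marrow. It thus passed the filter only through MLL-GAS7, the cohort then called higher. Against normal, MLL-AF10 was lower by 1.05 (value -1.05 ± 0.31, adjusted p = 0.00774) and MLL-AF1p by 0.82 (value -0.82 ± 0.30, adjusted p = 0.0356), and the MLL-AF1p call was lost with either other pseudocount and without any 1 of 5 mice, normal mice 1 and 2 among them (adjusted p from 0.0555 to 0.132). Promyelocyte markers also differed in MLL-GAS7: 4 of 6 were lower there than in the other cohorts, where 4.10% of all genes were called. Their summed intensities were 60896.7 to 124646 against 81492.5 to 191556 in the other 4. The median difference was -1.06 for promyelocyte, 0.58 for late neutrophil and 0.48 for B cell markers, where that of all genes was -0.08. In MLL-GAS7 2 of 6 stroma markers, 1 of 10 late neutrophil and 1 of 9 T and NK cell markers were higher, and none of the erythroid, B cell, monocyte or megakaryocyte markers was called. The part of these cells in the Tet1 result was not tested. Of the other 2 Tet1 probe sets, 1419897_at gave -0.22 ± 0.36 against normal (adjusted p = 0.682 by limma), and 1429448_s_at did not pass the filter on dim probe sets, with 31 of 34 leukaemias and all normal marrows below their array's median.

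**Figure D4:**
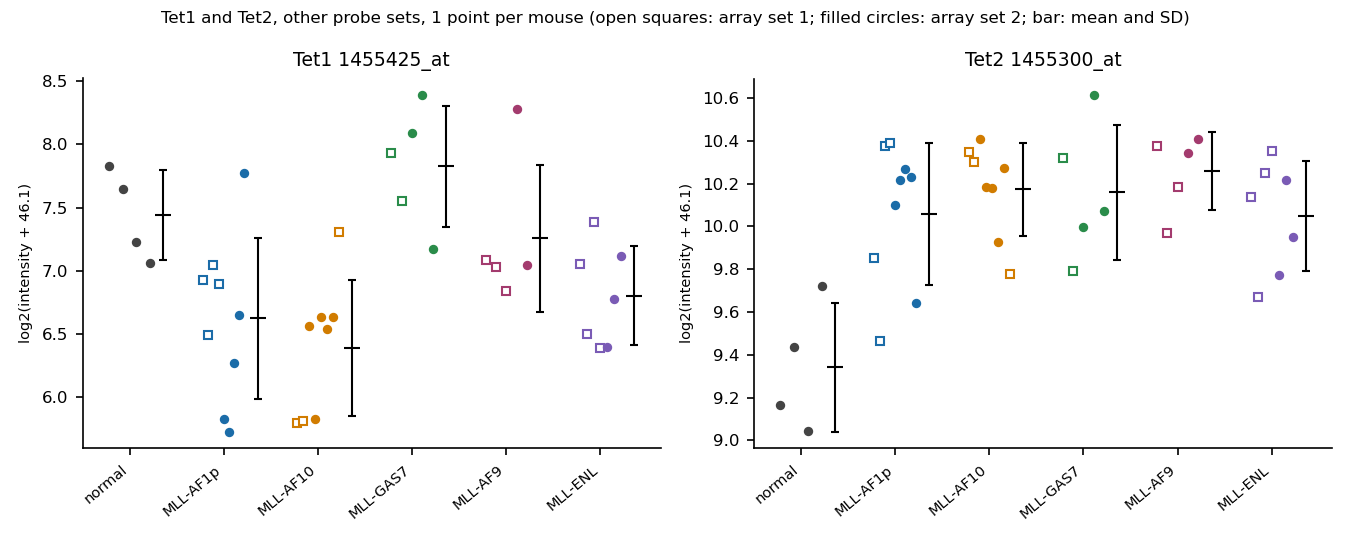
The Tet1 probe set 1455425_at and the Tet2 probe set 1455300_at, with log2(intensity + 46.1) on the y axis, groups on the x axis and 1 point per mouse; open squares are array set 1, filled circles array set 2, and bars the group mean and SD. MLL-GAS7 has the highest Tet1 mean of the cohorts, 7.82, and the normal marrows have the lowest Tet2 mean, 9.34.

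Tet3, measured by 1439324_at alone, read 6.09, 6.39, 6.63 and 7.11 in the normal marrows. None of these was above its array's median and 10 of 34 leukaemias were, so it passed the filter on dim probe sets through the leukaemias alone. MLL-AF1p ran from 6.70 over a median of 7.03 to 8.33, MLL-AF10 from 6.67 over 7.54 to 8.14, and MLL-ENL from 6.39 over 7.24 to 8.26. The MLL-AF9 mice read 6.51, 6.92, 7.61, 7.73 and 8.62, while the MLL-GAS7 mice read 6.17, 6.25, 6.48, 6.75 and 7.66. In all, 18 of 34 leukaemias were above every normal marrow and none was below, and MLL-GAS7 stayed mostly within the normal range. The leukaemia difference was 0.69 ± 0.31 (adjusted p = 0.0780 by limma). MLL-AF10 alone was called, at 0.97 ± 0.36 or 1.96-fold (adjusted p = 0.0344), and that call was lost without any 1 of 7 arrays (adjusted p from 0.0557 to 0.121) and on unshifted intensities (0.85, adjusted p = 0.0629). With array weights the leukaemia difference was called (0.75, adjusted p = 0.0458), as was MLL-ENL (0.89, adjusted p = 0.0386), which was also called within set 2 (1.03, adjusted p = 0.0364). MLL-GAS7 was lower than the other cohorts by 0.73 (value -0.73 ± 0.28) with an adjusted p of 0.166.

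**Figure D5:**
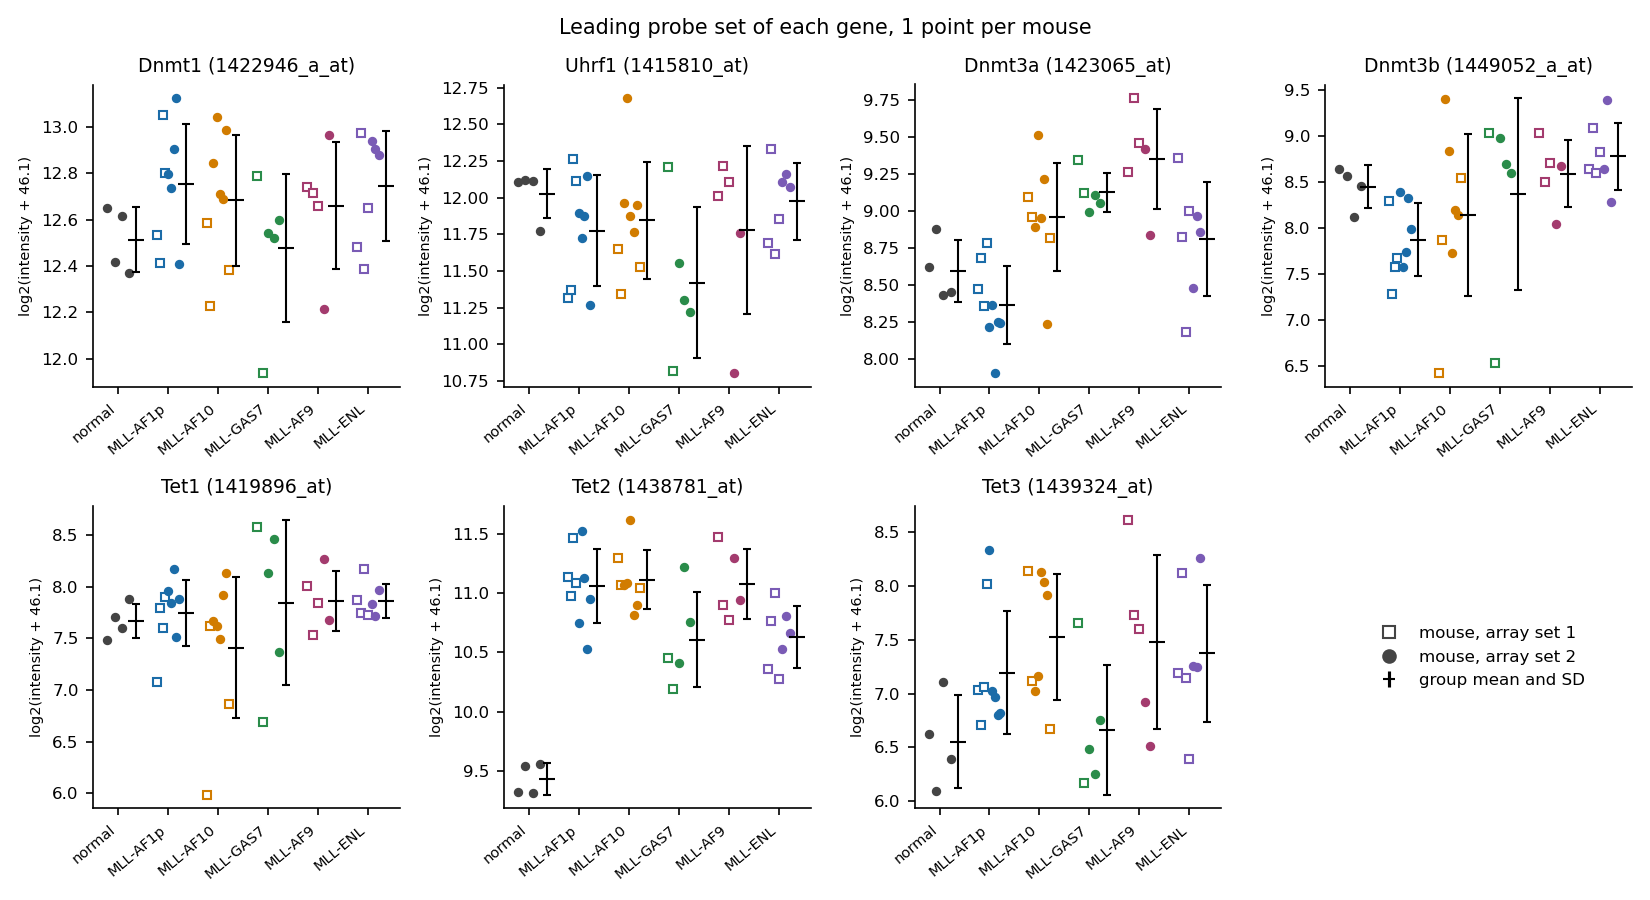
Leading probe set of each of the 7 genes, with log2(intensity + 46.1) on the y axis, groups on the x axis and 1 point per mouse; open squares are array set 1, filled circles array set 2, and bars the group mean and SD. The Tet2 values of all 34 leukaemias lie above the 4 normal values, and the MLL-AF1p values of Dnmt3a lie under all values of MLL-GAS7 and MLL-AF9.

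Genes that work with these enzymes were read by the leading probe set of each gene, where the median difference of all 13333 genes between leukaemia and normal was 0.16 and 40.8% were called (28.3% higher and 12.5% lower). Of 11 maintenance partners tested 1 was higher and 2 lower (median 0.10): Cdca7l rose 1.42-fold, while the DNA ligase Lig1 fell by 0.52 and the deubiquitinase Usp7, which stabilises Dnmt1 and Uhrf1, fell by 0.50 (adjusted p = 0.000117 by limma). Of 10 de novo cofactors 4 were higher and 0 lower (median 0.33), with Dnmt3l, a catalytically inactive partner of the Dnmt3 enzymes, up 2.26-fold (adjusted p = 0.0101), and Morc3, Ehmt1 and Setd2 up 1.39-, 1.38- and 1.23-fold. Among 7 methyl-CpG readers 4 were higher and 0 lower (median 0.39): Zbtb38 rose 2.17-fold, Mbd1 1.82-fold, Mbd6 1.53-fold and Zbtb33 1.31-fold, the first 3 above the normal median in 34 of 34 leukaemias.

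The list of Tet regulators and of genes that repair oxidised bases held more falls than rises, with 5 lower and 1 higher of 11 tested (median -0.06). Of all genes 12.5% were called lower and 28.3% higher. Gadd45a, a stress gene linked to demethylation, was 7.29-fold lower (value -2.87 ± 0.33, adjusted p = 5.23e-09 by limma), and Cxxc5, a CG-binding protein known to lower Tet2, was 5.24-fold lower (-2.39 ± 0.32, adjusted p = 1.83e-07). Gadd45g was 2.003-fold lower and the glycosylase Neil1 1.90-fold lower. Gadd45a, Cxxc5 and Neil1 were below the normal median in 34 of 34 leukaemias.

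Genes that supply the enzymes' small molecules were also counted, beside the 28.3% of all genes called higher and 12.5% called lower. Of 11 genes around 2-oxoglutarate, the co-substrate of Tet enzymes, 6 were higher and 1 lower (median 0.43), with Idh1, which makes it in the cytosol, up 3.36-fold (1.75 ± 0.24, adjusted p = 2.48e-07 by limma), Glud1 up 2.09-fold, Fh1 1.68-fold and D2hgdh 1.47-fold. Of 10 genes of methyl donor supply 3 were higher and 0 lower (median 0.25), near the share of all genes called higher. The mitochondrial serine enzyme Shmt2 rose 2.71-fold (adjusted p = 1.7e-05 by limma), Ahcy, which clears the by-product of methylation, 1.55-fold, and Mtrr 1.42-fold. Few proliferation genes rose. Of 20 S phase genes 1 was higher and 5 lower (median -0.01), with Rrm2 2.34-fold, Cdc6 2.13-fold, Rrm1 1.65-fold and Tk1 1.55-fold lower. Of 16 mitosis genes 0 were higher and 12 lower (median -0.66), led by Ube2c (2.87-fold), Nusap1 (2.54-fold), Ccna2 (2.24-fold) and Birc5 (2.22-fold). In MLL-AF1p against the other cohorts, the calls among these 8 lists were 1 of 10 methyl donor genes and 1 of 11 2-oxoglutarate genes, both lower. Of all 13333 genes 1.72% were called in that comparison, so these single calls are no result about the lists.

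For each member, the 3 genes with the most similar variation within groups were read off as a description, over the 38 arrays, which share their RNA and hybridisation. Dnmt1 was most like Mcm7 (r 0.94), Mcm5 (0.93) and Rfc5 (0.92), and Uhrf1 most like Rfc5 (0.92), Rrm1 (0.91) and Cnot9 (0.90). All but Cnot9 of these encode parts of the replication machinery or, for Rrm1, of nucleotide supply. Tet2 was most like Ifnar1 (0.81), Herc4 (0.72) and Wdr26 (0.70), and Dnmt3b most like Ppan, Tnpo3 and Phtf2 (each 0.77). Tet1 was most like 4933439C10Rik (0.76), Snapc4 (0.73) and Cox15 (0.73). The most similar genes of Dnmt3a, Pde5a (0.60), Otoa (0.57) and Alg11 (0.57), and of Tet3, Nek7 (0.61), Txnl1 (0.56) and Mapk11 (0.54), were less close.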

How the data were processed

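The values table deposited by the authors gives linear intensities, 1 for each array and probe set, already scaled: the mean after trimming 2% at each end is 500 on every array, and array medians ran from 129.2 to 208.3. The sources used here do not give the software. From the deposited intensities log2(intensity + 46.1) was computed, 46.1 being the 25th percentile of all values, and every array was then moved to a common median. A fold change on this scale understates the change of dim probe sets. Probe sets above the array median on at least 4 arrays were kept (29004, of which 23902 carry 1 symbol). The limma package (3.58.1, in R 4.3.3) fitted 6 group means over all 38 arrays (32 residual degrees of freedom, 37.12 with the prior), with 2-sided moderated tests adjusted by Benjamini-Hochberg over all kept probe sets. The comparisons made were all leukaemias (each of the 5 cohort means weighted equally) against normal, each cohort against normal, each against the mean of the other 4, and an F test among cohorts. The limma p-values set differences between group means against the spread between mice within groups, pooled over the 6 groups, and the number of arrays limits the precision. The code was tested on simulated data.

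Of the 45101 probe sets 932 carry several symbols and 9160 none here, and 64 are controls; symbols of 34741 probe sets were matched to RefSeq and 0 changed. The members, the 8 gene lists and the markers were chosen with earlier results of these data known. From each list up to 4 called genes with the largest change were named. The 2 array sets were found in the values, not the labels, as a split of the leukaemias shared by 8 probe sets. Within-group relations were tested by permuting arrays within groups and adjusted over 28 relations. Alternatives were pseudocounts of 1 and of the median, intensities not moved to a common median, quantile normalization, no filter, 1 probe set per gene, array weights, a variance trend, the array set as a term, set 2 alone and each array left out; added after the data were seen were set 1 alone and leaving out the 5 arrays with the brightest hybridisation controls. Promoter windows are those of RefSeq for GRCm38.p6, which held all 7 genes.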

Additional observations from a re-analysis of the deposited data

Results flagged for a closer look

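In 16 of 114 combinations of group and member probe set, the highest or lowest mouse stood apart from the rest of its group by Dixon's criterion, where about 5.7 are flagged by chance (1 in 20). All values are log2(intensity + 46.1). Low mice were mouse MLL-AF9_305 for Dnmt1 1435122_x_at (10.66, next 11.63), normal mouse 3 for Uhrf1 1415810_at (11.78, next 12.11), and mouse MLL-GAS7_407 for Uhrf1 1415811_at (8.00, next 9.97) and for Dnmt3b 1449052_a_at (6.53, next 8.60). Mouse MLL-ENL_702 was low for Dnmt3a on 1423063_at (7.79, next 8.73) and 1423066_at (6.76, next 8.85).

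High mice were mouse MLL-AF1p_811 for Dnmt1 1435122_x_at (12.43, next 11.87) and Tet1 1429448_s_at (6.54, next 5.99), and mouse MLL-ENL_760 for Dnmt1 1435122_x_at (11.91, next 11.70) and 1447877_x_at (10.94, next 10.61). Mouse MLL-GAS7_406 was high for Dnmt1 1447877_x_at (10.85, next 10.004). Mouse MLL-AF10_783A was high for Uhrf1 1415810_at (12.68, next 11.96) and Dnmt3a 1423063_at (9.76, next 8.92). In Tet1 the high mice were mouse MLL-ENL_703 for 1419897_at (7.45, next 6.40), mouse MLL-ENL_774 for 1429448_s_at (7.47, next 6.13) and mouse MLL-AF9_305 for 1455425_at (8.28, next 7.09).

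The difference between cohorts was itself tested and called for 4 probe sets. By the F test the largest gap between cohort means was 1.28 for Dnmt3a 1423063_at (adjusted p = 0.000901 by limma), 0.99 for Dnmt3a 1423065_at (0.00171), 1.37 for Dnmt3a 1460324_at (0.0341) and 1.43 for Tet1 1455425_at (0.00730). The calls of the last 3 were lost within either array set, and that of 1423063_at within set 1 (1.01, adjusted p = 0.424). MLL-AF1p against the other cohorts gave -0.93 (0.00131), -0.70 (0.00131) and -0.92 (0.0369) for the same 3 Dnmt3a probe sets in that order, and MLL-GAS7 against the others gave 1.06 (0.0100) for the Tet1 probe set. That Tet1 probe set passed the filter on dim probe sets only through MLL-GAS7, the cohort then called higher. Its MLL-GAS7 call was lost without the mouse MLL-GAS7_408 (adjusted p = 0.0604 by limma).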

How the results depend on the processing

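Over 18 probe sets and 12 comparisons (216 results, 37 called), 2352 values under other settings held 42 lost calls, 35 gained calls and 0 reversed calls, and 8208 values with 1 array left out held 57 lost, 29 gained and 0 reversed. Both Tet2 probe sets kept their calls against normal in all 5 cohorts under every setting run, from 1.30 to 1.55 on 1438781_at for all leukaemias. By leading probe set, the members called against normal numbered 1 for all leukaemias (2 with quantile normalization or array weights), 2 in MLL-AF10 (1 on unshifted intensities or leaving out 5 arrays whose hybridisation controls were brightest, a choice made after seeing the data), 1 in MLL-GAS7 (2 on unshifted intensities, 3 with quantile normalization), 2 in MLL-AF9 (1 in set 2) and 1 in MLL-ENL (2 with array weights or in set 2). In MLL-AF1p against the others 1 was called (0 in set 1). Among cohorts 1 was called: 2 with the median pseudocount, 1 probe set per gene, array weights or the variance trend, and 0 in either array set (set 1 alone was also added after seeing the data). With 1 array left out these counts ran from 1 to 1 (leukaemia, MLL-AF1p against normal), 1 to 2 (MLL-AF10, MLL-GAS7 and MLL-ENL against normal, MLL-AF1p against others, among cohorts), 2 to 3 (MLL-AF9 against normal), 0 to 1 (MLL-GAS7 against others) and 0 to 0 (MLL-AF10, MLL-AF9 and MLL-ENL against others, where with all arrays limma's unadjusted p was under 0.05 for 2, 1 and 2). The cause of these shifts was not tested, except that a single array set holds fewer mice.

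Of the probe sets called in leukaemia against normal 67.3% were higher, and 53.6% on unshifted intensities, where the median difference was 0.01 in place of 0.14; in MLL-GAS7 against the others the share was 26.7% and 45.7%. No paired analysis was possible because the groups hold different mice and the labels pair none of them. Several member probe sets were dim beside array medians of 129.2 to 208.3, so small differences there may be missed. Their median intensity in leukaemia was 29.85 on Tet1 1419897_at, 64.5 on Tet1 1455425_at and 90.45 on Tet3. In normal marrow it was 52 on Dnmt3a 1423064_at and 53.4 on Tet3, and in MLL-AF1p it was 102.7 on Dnmt3a 1460324_at. The leading Tet1 probe set, at 166.45 in leukaemia, was close to the array medians.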
